A study of Drosophila melanogaster with 2 samples.

Results

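The regions described here were weak peaks of CG17829, the Drosophila gene named Hinfp in the annotation, that lay away from gene starts. Of the 30000 peaks that the authors called on both replicates together, 17541 met the rule. They were selected on 2 properties: the peak was absent from the authors' shorter list, cut by irreproducible discovery rate (IDR), which scores how well peak ranks repeat between replicates, and its summit lay over 250 bp from every annotated transcription start site (TSS). The other peaks fell into 3 groups used for comparison, namely 4544 weak peaks within 250 bp of a TSS (weak promoter), 4106 IDR peaks away from a TSS (strong away) and 3809 IDR peaks at a TSS (strong promoter). The members therefore made up the largest of the 4 groups, ranked 7916 to 30000 by pooled signal.

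Chromatin immunoprecipitation with sequencing (ChIP-seq) had been done with an antibody against GFP on whole embryos, male and female pooled, aged 0 to 24 hours, from 1 transgenic line carrying CG17829 with GFP at its C terminus. The labels gave 1 group with 2 biological replicates, numbered 2 and 4, and no second genotype, age or treatment. Each list covers all embryonic cell types and ages at once, so a weak peak bound in few cells and a weak peak bound in many cells cannot be told apart. Read depth per library is not given in the sources used here. Shares below carry exact Clopper-Pearson 95% intervals, which cover counting error over peaks only.

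Hinfp is the fly relative of human HINFP, a zinc finger protein known for binding the promoters of histone H4 genes. Peaks of a transcription factor away from gene starts can lie at enhancers, at insulators or at open chromatin where protein is crosslinked without a motif of its own, and the weakest calls of a long list can include background. GAGA repeats, the DNA replication-related element (DRE) and the element of M1BP are sequence signals common in fly regulatory DNA, the last 2 mainly at promoters of broadly active genes.

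The 8 sequences printed here, centred on member summits, 50 bases to each side, are selected examples and do not represent the members as a whole. They are printed 5′ to 3′ on the plus strand of dm6 from the RefSeq assembly. The capitals mark the short sequence that each was shown for, on either strand, or the summit base where no such sequence was searched. The windows in rdx, near asRNA:CR45806 and near CG17364 were, among those with no UTR bases, the members with the best replicate ranks that held the 3 fixed short sequences most raised at summits. The windows near Inx7, CG15498, Gr98d and zfh1 were chosen after the values were seen, as the best ranked holders of their sequence with no strong peak overlapping and with summits repeated within 100 bp. The Gr98d and zfh1 windows hold the 6-mers ACACTG and AGTGTA, which an open search found and which overlap in sequence on opposite strands. The last is the best ranked member in a coding exon.
GAGA repeat, rdx intron, chr3R:13983799-13983899: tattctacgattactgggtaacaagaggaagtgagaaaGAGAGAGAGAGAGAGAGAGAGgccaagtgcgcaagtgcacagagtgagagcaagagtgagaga
GAGA repeat, intergenic near Inx7, chrX:6993908-6994008: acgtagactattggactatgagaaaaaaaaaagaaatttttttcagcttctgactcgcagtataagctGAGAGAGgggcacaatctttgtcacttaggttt
DRE, intergenic near asRNA:CR45806, chr3L:174601-174701: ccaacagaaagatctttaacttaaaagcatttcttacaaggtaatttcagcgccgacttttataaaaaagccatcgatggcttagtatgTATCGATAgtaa
M1BP element, intergenic near CG17364, chr3L:13993761-13993861: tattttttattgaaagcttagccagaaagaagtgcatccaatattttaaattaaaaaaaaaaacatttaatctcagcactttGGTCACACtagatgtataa
HINFP core, intergenic near CG15498, chr3R:21566888-21566988: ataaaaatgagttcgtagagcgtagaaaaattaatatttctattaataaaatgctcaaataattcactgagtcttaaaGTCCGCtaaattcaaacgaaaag
first 6-mer, intergenic near Gr98d, chr3R:27547635-27547735: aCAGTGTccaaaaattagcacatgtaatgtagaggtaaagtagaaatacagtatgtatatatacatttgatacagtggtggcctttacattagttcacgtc
second 6-mer, intergenic near zfh1, chr3R:30764315-30764415: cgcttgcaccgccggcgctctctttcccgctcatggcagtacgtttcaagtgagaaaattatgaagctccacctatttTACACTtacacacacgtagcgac
coding exon, CG13392, chr2L:8381982-8382082: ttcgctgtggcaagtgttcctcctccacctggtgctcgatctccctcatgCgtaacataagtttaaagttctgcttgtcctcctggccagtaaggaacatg

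The rdx and CG13392 windows were centred 201 bp and 199 bp from the summit of a stronger peak. The DRE member had a signal of 131 in the pooled list, 78.8 in replicate 2 and 72.3 in replicate 4. The M1BP member had 136, 78.9 and 59.9 in the same lists. The member near Gr98d, a taste receptor gene, had 138, 77.96 and 67.04. The member near zfh1, which encodes a zinc finger homeodomain repressor, had 125, 74.0 and 70.6. They were picked for their ranks in the replicate lists, so their strength is part of the choice.

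The authors' signal value, whose scale is not defined in the labels or notes, chose the members. It ran from 29.6 to 138 with a median of 48.0, against medians of 66.9 in the weak promoter peaks, 245 in the strong away peaks and 236 in the strong promoter peaks. Just inside the threshold stood a member in the 3' UTR of CG1888 at rank 7916, a member in an intron of Smr at rank 7917 and a member in an intron of spri at rank 7918, each with a signal of 138 after rounding. Just outside it stood intron peaks of CG1146, at the last rank before it, and of lncRNA:iab8 at rank 7913 and an intergenic peak near lncRNA:CR44723 at rank 7912, also at 138. Nothing in these values separates the neighbours of the threshold. The authors' deposited q was 0.05 or less for 57.9% of all pooled peaks, for 6684 members (38.1%, 37.4 to 38.8) and for 61% of the weak promoter peaks, and because q follows the signal this is a description of the rule. The remaining 10857 members (61.9%) were listed by the authors above that q, and 1195 members sat at the highest −log10 q in the list, 4.295.

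Most members overlapped a peak in the separate lists of both replicates, but only a minority did so with summits within 100 bp. Across all pooled peaks 75.5% overlapped a peak in both lists by 1 bp or more. Among the members 11019 did (62.8%, 62.1 to 63.5), 3100 (17.7%) overlapped a peak of replicate 2 only, 2640 (15.1%) a peak of replicate 4 only and 782 (4.46%) neither. The weak promoter peaks were found in both lists in 83.5% (82.4 to 84.6) and the strong away peaks in 98.7%. The pooled list was made from the same reads as the replicate lists, so these shares are a description and not an independent repeat. Under a stricter rule, summits within 100 bp in both lists, the shares were 54.5% of all pooled peaks, 37.4% of the members (36.6 to 38.1), 50.02% of the weak promoter peaks and 95.5% of the strong away peaks.

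For the members found in both lists, the overlapping replicate peaks had median ranks of about 16220 in replicate 2 and 16180 in replicate 4. The signals of these overlapping peaks ran from 18.4 to 718 in replicate 2, with a median of 36.2. In replicate 4 they ran from 16.0 to 810, with a median of 31.6. An overlapping peak can be that of a neighbour, so its values need not be the member's own. Across these 11019 members the signals of the 2 overlapping peaks were related with Spearman's rho of 0.391 and Pearson's r of 0.390 on log10 values. The strong away peaks had rho of 0.816 over a far wider range of signals. These correlations are across peaks of the same 2 libraries, and peaks are not replicates. The summits of the overlapping peaks lay a median of 26 bp in replicate 2 and 29 bp in replicate 4 from the pooled summit of the member. For the strong away peaks these were 11 and 9 bp.

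**Figure D1:**
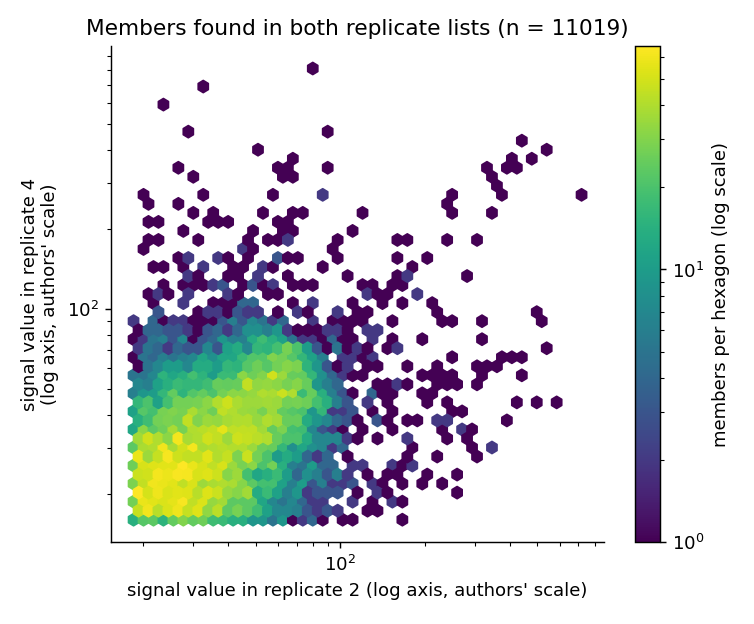
Signal value of the overlapping replicate peaks for the 11019 members that overlap a peak in both replicate lists, replicate 2 on the horizontal axis and replicate 4 on the vertical axis, both logarithmic and on the authors' scale, with the colour giving the number of members per hexagon on a log scale. Most members form a broad cloud below 100 in both, and a thin arm reaches above 400 in both.

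Most members whose overlapping peaks had high signal in both replicates lay beside stronger peaks. When as many top peaks of each replicate list were taken as the IDR list holds, 125 members overlapped one in both, and 112 of these (89.6%) also overlapped an IDR peak. All 10 members with the best ranks in both replicates did so, with summits 199 to 212 bp from the stronger one. The clearest was an intergenic member on 3R near lncRNA:CR45645, which ranked 24097 in the pooled list with a signal of 38.5 but overlapped peaks ranked 593 in replicate 2 and 564 in replicate 4, with signals of 412 and 358. Others lay in introns of rdx, of the Polycomb group gene ph-p and of Stat92E, the transcription factor of the JAK/STAT pathway, in introns of lbk and stx, in an exon of lncRNA:CR43334, and in intergenic sequence near CG2865 and Best2. For such a member the overlapping replicate peak can be that of the strong neighbour, so its replicate rank does not measure the member itself.

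A stricter set, chosen after the values were seen, held the members that overlapped no IDR peak and had summits within 100 bp in both replicates. It had 6115 members (34.9%), of which 4 were among that many top peaks in both lists. The best of the 4 was a member on 3L in an intron of CrebA, a leucine zipper factor of the secretory pathway, with a pooled signal of 78.4, rank 5750 in replicate 2 and rank 5991 in replicate 4. It too lay 201 bp from a strong summit, though its own interval did not overlap that peak. The next were the DRE member printed above, a member in an exon of lncRNA:CR44717 and an intergenic member 1633 bp from the TSS of Gr98d, printed above, with pooled signals of 131, 133 and 138.

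Within the group, the share found in both replicate lists fell steadily with pooled rank. When the members were cut into deciles by pooled signal, 97.8% of the strongest decile overlapped a peak in both lists, 70.4% of decile 5 and 21.3% of the weakest. The share in neither list went from 0.057% to 19.4%. The annotation class changed along with it. Coding exons held 0.57% of the summits in the strongest decile and 15.5% in the weakest, introns 59.0% and 50.5%, and intergenic sequence 33.6% and 24.2%. The mean GC content of the window around the summit rose from 35.6% to 43.2% (SD 10.6 and 10.7) over the same deciles, and the share of soft-masked (repeat or low-complexity) bases fell from 23.6% to 16.3%. The median distance to a TSS showed no such trend, with 2343 bp in the strongest decile, 2810 bp in decile 5 and 2576 bp in the weakest.

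**Figure D2:**
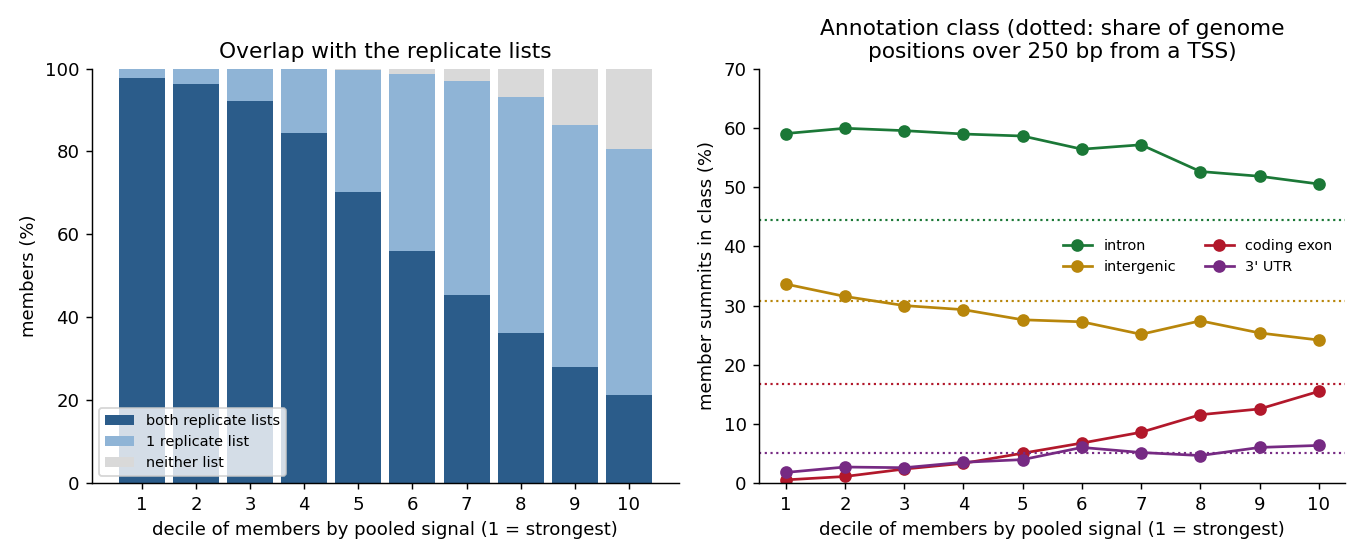
Members cut into deciles by pooled signal, strongest first, 1754 or 1755 in each. The left panel stacks the percentage found in both, 1 or neither replicate list, and the right panel plots the percentage of summits in each of 4 annotation classes with dotted lines at the share of the genome over 250 bp from a TSS; coding exons climb from 0.57% to 15.5%, close to the dotted line at 16.8%.

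Members lay mostly in introns and seldom in coding exons. Introns held 9902 summits (56.5%, 55.7 to 57.2), against 44.5% of all genome positions over 250 bp from a TSS, and intergenic sequence held 4936 (28.1%) against 30.8%. Coding exons held 1185 (6.76%, 6.39 to 7.14) against 16.8% of positions. The 3' UTRs held 755 (4.304%) against 5.14%, the 5' UTRs 399 (2.28%) against 1.43%, and other exons, such as those of noncoding RNAs, 364 (2.08%) against 1.28%. The strong away peaks were rarer still in coding exons, with 17 of 4106 (0.414%, 0.241 to 0.662), and had an intron share of 60.4% (58.8 to 61.9), above that of the members.

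Coding exon members differed from the others in several measures. Only 32.2% of them (29.5 to 34.9) overlapped a peak in both replicate lists, against 53.5% in 3' UTRs, 65.2% in introns, 65.3% in intergenic sequence, 72.4% in 5' UTRs and 73.9% in other exons. Their median pooled signal was 36.6, against 41.6 in 3' UTRs, 49.3 in introns and 50.6 in intergenic sequence. Their summits had a mean GC content of 54.9% (SD 7.55) with 46.3% in flanking windows 500 bp away, whereas intron members had 39.4% and 41.6%. GC content did not follow the same order over the classes: 3' UTR members, second lowest in signal and overlap, had the lowest mean GC content, 36.0%. The part of signal and GC content in the overlap was not tested.

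The distance to the nearest TSS was fixed by the rule at its lower end and ran to 59849 bp, with a median of 2549 bp. Members were spread over the range from 250 bp to 1 kb (23.5%), 1 to 5 kb (46.3%), 5 to 20 kb (27.1%) and beyond 20 kb (3.11%), where the genome positions that the rule allows had 17.4%, 39.5%, 29.3% and 13.8%. The strong away peaks had 31.3% in the nearest class and 2.63% in the farthest. The member farthest from a TSS lay on X in an intron of CG43759, had a pooled signal of 36.6 and was found in replicate 2 only. The next, in an intron of kek5 and 59369 bp from a TSS, had 41.4 and was found in replicate 4 only. Another member in CG43759, 58799 bp from a TSS, had a pooled signal of 107 and ranks of 12061 and 10005 in replicates 2 and 4.

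Some members were shoulders of stronger peaks. An IDR peak overlapped 996 members (5.68%, 5.34 to 6.03), against 22.8% of the weak promoter peaks. The summits of those members lay a median of 203 bp from the stronger summit, and the middle 50% of these gaps spanned only 200 to 209 bp, with a minimum of 199 bp. The usual width of a listed peak was 430 bp, seen in 98.97% of members, and 48 members had the same start and end as another pooled peak. For 208 of these members (20.9%) the overlapped strong peak was at a promoter. The share overlapping an IDR peak was 8.72% in the strongest decile of members and 2.05% in the weakest. Most members stood apart: the median distance to a strong summit was 2934 bp, 16.6% lay within 1 kb of one and 4.98% over 20 kb away.

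GC content dipped at the summits, but far less than at the strong peaks. Members had a mean of 40.3% (SD 10.8) at the summit and 41.9% in flanking windows 500 bp to each side, a difference of -1.65 percentage points. Strong away peaks had 32.1% and 42.3%, a difference of -10.24 points, strong promoter peaks 37.5% and 45.9%, and weak promoter peaks 42.5% and 43.6%. The strongest decile of members, at 35.6%, lay between the strong away peaks and the members as a whole. All genome positions over 250 bp from a TSS had 42.2%. Annotated transposons covered 6.37% of those positions and held 95 member summits (0.542%).

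**Figure D3:**
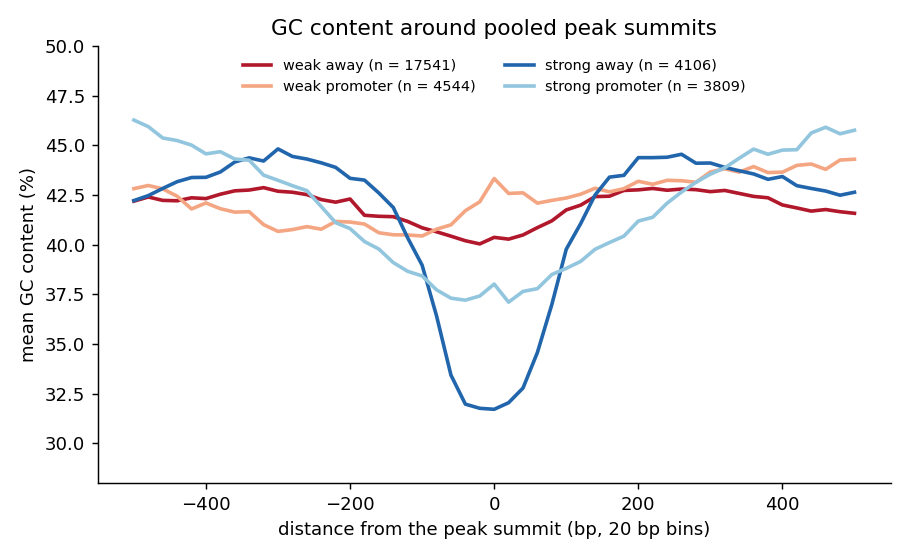
Mean GC content in bins of 20 bp, plotted by distance from the summit for members (weak away) and the 3 comparison groups. The strong away peaks dip to about their summit value of 32.1% in a narrow trough, whereas the members stay between 40% and 43% throughout.

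Short sequences were counted in the same windows around summits on both strands, with flanking windows 500 bp away as the reference. Of 21 fixed short sequences, 5 had a ratio of summit to flank over 1.2 in the members and 4 had a ratio under 0.9. The ratios ran from 0.714, for GCGGACG, a longer form of the HINFP core, to 1.51. CAGCTGTT, not described further, had 1.34. The 7-mer GAGAGAG, a core of the GAGA repeat bound by GAGA factor, was in 2.57% of member summits (2.34 to 2.82) and 1.70% of flanks (1.57 to 1.84), a ratio of 1.51. The rdx window above shows it as a long run, in which copies overlap. The CA repeat CACACACA was in 3.55% (3.28 to 3.83) and 2.87% (2.70 to 3.05), and the GATA site AGATAA in 6.83% (6.46 to 7.21) and 5.71% (5.47 to 5.96). In the strong away peaks GAGAGAG and CACACACA went the other way, with 1.73% of summits against 2.97% of flanks and 1.27% against 3.28%, while AGATAA was in 8.91% against 5.81%. In the weak promoter peaks both repeats were raised as in the members, GAGAGAG with 3.54% against 1.84% and CACACACA with 3.68% against 2.83%. Base composition was not matched between summits and flanks, and its part in these ratios was not tested.

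The 2 promoter elements were scarce in peaks away from promoters, weak or strong. TATCGATA, the DRE, was in 57 member windows (0.325%, 0.246 to 0.421) against 0.220% of flanks (0.173 to 0.274), and GGTCACAC, the M1BP element, in 38 (0.217%, 0.153 to 0.297) against 0.157% (0.118 to 0.204), so the intervals overlapped in both cases. The strong away peaks held them in 0.341% and 0.365% of summits. The weak promoter peaks held them in 3.52% and 3.19% of summits, and the strong promoter peaks in 6.72% and 5.57%, which were 25.6 and 20.2 times their flanks. The windows near asRNA:CR45806 and CG17364 printed above are 2 of the few members with such an element. GCGGAC, a core of the sites known for vertebrate HINFP, was in 354 member windows (2.02%, 1.82 to 2.24) and in 2.42% of flanks (2.26 to 2.59), a ratio of 0.834. In the strong away peaks it was in 0.804% of summits and 2.31% of flanks. The longer GCGGACG was in 0.433% of member summits (0.342 to 0.542) and 0.607% of flanks (0.529 to 0.694). It was in 1.21% of weak promoter summits (0.913 to 1.57) against 0.825% of flanks (0.650 to 1.03). The strong away peaks had 0.171% against 0.548% and the strong promoter peaks 0.761% against 1.16%. The member near CG15498 printed above, with a pooled signal of 121, is the best ranked of the isolated members that held GCGGAC.

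An open search over all 2080 6-mers used some arms to choose and the others to give values. The 10 with the highest ratio of summit to flank on 2L, 2R and chromosome 4 were read again on 3L, 3R and X, where 6 of them stayed above 1.3. ACACTG had a ratio of 1.51 on the first arms and 1.60 on the second, where it was in 5.07% of member summits and 3.17% of flanks. AGTGTA had 1.52 and 1.61, with 5.35% and 3.31%. On the other strand AGTGTA reads TACACT, which shares the run ACACT with ACACTG. One site can therefore hold both 6-mers, and they need not be separate signals. Over all 6-mers on the second arms the ratio had a median of 0.963, a 95th percentile of 1.22 and a maximum of 1.61. ACACTG and AGTGTA were the 2 of the 10 with the highest ratios on the second arms, so their place there is part of the choice. CTGTAC, first on the choosing arms with 1.61, fell to 1.17. On the second arms ACACTG was in 4.64% of the strong away, 8.49% of the weak promoter and 10.4% of the strong promoter summits. AGTGTA was in 7.09% of the strong away, 3.80% of the weak promoter and 4.44% of the strong promoter summits. Along the deciles of members ACACTG was in 5.76% of the strongest, in 3.82% of decile 7, the lowest, and in 5.19% of the weakest. AGTGTA was in 7.01% of the strongest, in 3.82% of decile 8, the lowest, and in 4.96% of the weakest. The rise was broad: per 1000 members ACACTG started in 10.95 at the central bin of 20 bp, in 8.84 at 200 bp to its left on the plus strand and in 7.81 at 500 bp to its left. Per 1000 strong away peaks it started in 6.82 at the central bin. There it reached 35.8 at 80 bp to the left and 30.2 at 100 bp to the right, outside the windows counted above. The members had 10.8 and 9.69 at those 2 bins, and on each side at most 13.7, at 60 bp to the left, and 12.4, at 80 bp to the right. AGTGTA in the strong away peaks had 10.7 at the central bin, 32.9 at 80 bp to the left and 28.2 at 100 bp to the right. In the members AGTGTA had 10.7 at the central bin and at most 13.7, at 80 bp to the right. The shares in the windows thus understate both 6-mers around the strong away peaks.

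Member summits lay within 3287 of 13945 protein-coding genes, 23.6%. They clustered in few genes, with 319 genes holding 10 or more and 93 holding 20 or more. The counts rose with gene length: 2.29% of the shortest quintile of genes held a member and 62.2% of the longest, and the total per 10 kb of gene was 0.322 and 1.47. The rule closes the 250 bp around each TSS to members, which left 59.9% of the length of the shortest quintile open and 95.4% of the longest. Per 10 kb of open length the totals were 0.538 and 1.54, a measure added after the values were seen. Among only the stronger 50% of members 14.7% of genes held one.

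The homeodomain gene hth, whose protein partners Extradenticle, held 80, of which 75 lay in introns. In hth 48 members (60%) were found in both replicate lists, against 62.8% of all members. The adhesion gene kirre, needed for myoblast fusion, held 70 over 394 kb, which is 1.78 per 10 kb against 6.06 in hth. The zinc finger gene jing held 66 and the ecdysone-induced nuclear receptor gene Eip75B 51, of which 44 (86.3%) were found in both replicates. The Wnt receptor gene fz2 held 50 and rdx, an adaptor for destruction of the Hedgehog effector Ci, 47. SKIP held 54, Glut4EF 46, CG42238 43 and CG46467 43, the last overlapping Glut4EF so that its summits were shared with it. These genes also held strong away peaks, with 24 in kirre, 13 in hth and 12 in fz2 but 1 in Glut4EF.

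**Figure D4:**
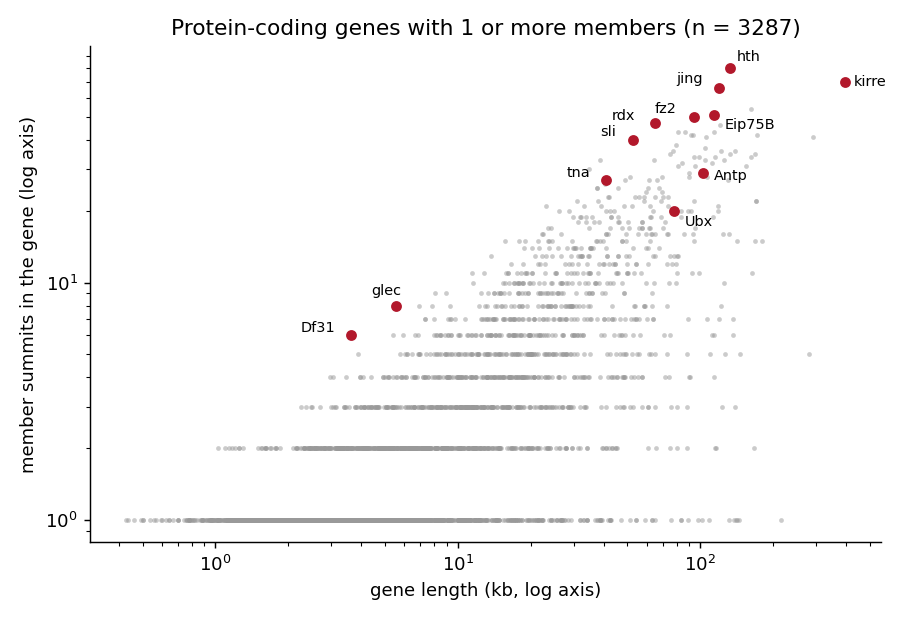
Member summits in each of the 3287 protein-coding genes that hold at least 1, against gene length in kb, both axes logarithmic, with genes named in the text in red. Counts rise with length, and at a given length hth, jing and rdx stand at the upper edge while kirre reaches 70 at the greatest length among the named genes.

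Among genes with 5 or more members, the most per length were in 5 genes of 3.62 to 8.02 kb. Df31, for a chromatin-associated protein, held 6 in 3.62 kb (16.6 per 10 kb), and glec, a lectin of embryonic glia, held 8 in 5.57 kb (14.3 per 10 kb). The TORC1 inhibitor gene scyl held 5, the axon guidance gene comm 8 and 14-3-3epsilon, a phosphoprotein adaptor, 9, which is 12.9, 11.6 and 11.2 per 10 kb. None of these 5 held a strong away peak. Such peaks numbered only 0.285 per 10 kb over all protein-coding genes, so few could be looked for in genes this short. All 5 members in scyl, 7 of 8 in glec and in comm, 5 of 6 in Df31 and 6 of 9 in 14-3-3epsilon were found in both replicate lists. Over all members 62.8% were. In genes this dense the overlapping replicate peak can be that of a neighbour.

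Among the function lists, signalling genes had the most members per length. Over all protein-coding genes there were 1.33 members per 10 kb, 23.6% of genes held a member and the median length was 2.17 kb. Signalling genes had 4.299 per 10 kb and a member in 26 of 32 genes, with fz2 and fz (34 members) at the top. Their median length was 16.3 kb, so the share of genes is not like for like. The list named blood and glial had 3.56, with 33 of its 94 summits in ush, a GATA cofactor. It had 17 in crp, a gene that nothing here ties to blood or glia. Polycomb and Trithorax group genes had 3.53, with 66 of the 150 summits in jing and 27 in tna. DNA replication and cell cycle genes had 3.50 in total, but 12 of 37 genes (32.4%) held a member. E2f1, the S-phase transcription factor, held 27 of the 63 summits. Ecdysone response genes had 2.52, led by Eip75B and EcR (31), and homeotic and segmentation genes 2.40, led by Antp (29) and Ubx (20). Dorsoventral and mesoderm genes had 1.92, with 11 in Mef2 and 9 in twi. Muscle genes had 1.75, with 18 in the integrin gene if and 14 in Tm1, and axon guidance and adhesion genes 1.68, with 41 in Ten-a and 40 in sli.

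Several lists had fewer members per length than all genes. The list named neuronal channels and synapse, with a median length of 39.0 kb, had 0.269 per 10 kb. In it elav, not itself a channel or synapse gene, and dlg1 held 7 and 6 of the 35 summits. Germ cell and piRNA genes had 0.317, with 3 in vas and 2 in gcl. Odorant and gustatory receptors had 0.285, proteasome genes 0.268, mitochondrial ribosomal proteins 0.450 and cuticle proteins 0.450. The proteasome members were 1 each in Rpn9 and Rpt3, the mitochondrial ribosomal list was led by mRpS9 (2) and mRpL13 (1), the cuticle list by Cpr73D (2) and Cpr64Ad (1), and the receptor list by Gr63a (2) and Gr39b (1). Cytosolic ribosomal proteins had 1.21 per 10 kb, with 16 of 92 genes (17.4%, against 23.6% of all genes) holding 1 member each, RpL12 and RpL18 among them. Only 56.1% of the length of these short genes was open to members, and per 10 kb of open length they had 2.16 against 1.44 over all genes, so their place relative to all genes turned with the measure. Genes for histone variants and the histone locus body had 1.23 per 10 kb, and 1.37 of open length. A member lay in 28.6% of these 14 genes, against 23.6% of all genes, with 3 in wge and 2 in His3.3B. Of the 17 lists, the cytosolic ribosomal proteins alone changed sides of the value for all genes when only open length was counted. Strong away peaks numbered 1.03 per 10 kb in signalling genes, 0.0538 in neuronal genes and 0 in proteasome genes, against 0.285 over all genes. The lists differ in gene length and number, and these values carry no test. Hinfp itself, a gene of 2.48 kb on X, held 0 members, and 3 lay within 5 kb of it on the side of CG13369, with pooled signals of 43.1, 36.1 and 57.0.

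Members were present on all 6 arms examined. Per Mb there were 148 on X, 142 on 3L, 139 on 2L, 118 on 3R, 114.6 on 2R and 89.8 on chromosome 4, and the share found in both replicate lists ran from 62.1% to 63.9% on the 5 large arms and was 55.4% on chromosome 4, which held 121 members. On chromosome 4 22.3% of summits lay in annotated transposons, against at most 0.552% elsewhere. Of 13391 windows of 10 kb, 7483 held none, and the median gap to the next member was 1056 bp. Some of the empty windows lay in long bare stretches. The 1 Mb bins at 0 to 1 Mb on 2R and 3R and at 25 to 26 Mb on 3L held 0 members. Those at 22 to 23 Mb on 2L and 21 to 22 Mb on X held 19 and 25. The median bin of the 5 large arms held 124 to 155. The values per Mb include these stretches. The fullest windows held 14 members, on 2L from 14440001 to 14450000, with no gene spanning the window, and on X from 8410001 to 8420000 inside the overlapping genes lawc and Trf2, the latter encoding a relative of the TATA-binding protein. In these 2 windows 13 and 14 members were found in both replicate lists, against 62.8% of all members, and a close neighbour can supply the overlap. The next were on 3R from 4970001 to 4980000 with 13, on 2R from 15890001 to 15900000 with 12 in sli, for a midline repellent of growing axons, and on 3L from 10850001 to 10860000 with 12 in tna.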

How the data were processed

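ChIP-seq peak lists of 1 group with 2 biological replicates were used. Per the labels and the deposited notes, the authors deposited 4 lists in the dm6 build: 1 per replicate and 1 pooled, each of 30000 peaks made from alignments and 1 control alignment, and a shorter IDR list. Neither aligner nor peak caller is named in those sources. The deposited signal value has no stated scale, and the deposited −log10 q values were capped at 4.295. Neither was changed here, and both served for ranking and description. Signals of different lists are given side by side but need not share a scale. Read depth is unknown.

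A weak peak was a pooled row with no identical IDR row in position, signal and summit. TSSs, gene spans and classes came from Ensembl 115 (BDGP6.54, 23581 TSSs, transposons left out) and sequence from the RefSeq release 6 assembly, both of which share coordinates with dm6. Where classes overlapped, a summit was given to the 5' UTR first, then to coding sequence, the 3' UTR, noncoding exons, introns and intergenic sequence. Python 3.11.15, numpy 2.4.6, pandas 2.3.3, scipy 1.17.1 and matplotlib 3.10.9 were used, and the functions were tested on simulated data. Nothing was tested, since members were chosen on the signal and there is no second group.

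The members and lists were chosen with earlier results of these data known. Sequences on arm 2R and from UTRs were not printed. Of the gene list symbols, 5 matched no single protein-coding gene and were left out. Named were the 10 members with the best worse-of-2 replicate rank, the 10 genes with most members, the 5 with most per 10 kb among those with 5 or more, 2 genes per list, Hinfp, the 5 fullest 10 kb windows, the 3 members farthest from a TSS, and 3 peaks on each side of the threshold. Alternatives varied the TSS distance, the gene types, the replicates, the signal range, the overlap, the window and the class order.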

Additional observations from a re-analysis of the deposited data

How the results depend on the processing

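No paired analysis was possible because there was 1 group of samples. The number of members stayed within 1.5 times under every alternative that could change it, from 13419 at a TSS distance of 1000 bp to 19488 at 100 bp. A percentage was taken as moved when it changed by more than 1 SD between the single-replicate lists, a narrow yardstick. In lists of 1 replicate alone, as many top peaks as the IDR list holds were taken as strong. Overlap was then sought only in the list of the other replicate, so these measures are unlike the main ones. They gave 55.2% to 56.1% of members in introns, 62.8% to 63.6% found in the other list and 6.33% and 5.795% overlapping a strong peak. GC contents were 40.5% and 40.7%, and 24.6% to 25.5% of genes held a member. With TSS distances of 100, 500 and 1000 bp the intron share was 53.4%, 58.2% and 59.6%, the share in both lists 64.7%, 61.7% and 61.6%, the share overlapping a strong peak 7.88%, 4.42% and 4.10%, and the share of genes 27.5%, 21.1% and 16.2%; at 1000 bp GC was 40.1%. The stronger 50% of members had 59.2% in introns, 88.2% in both lists, 8.12% overlapping a strong peak, GC of 38.4% and 14.7% of genes. Without members overlapping an IDR peak 60.6% were in both lists and 22.9% of genes held one. Counting introns before exons gave 59.6% in introns, and windows of 100 bp to each side gave GC of 40.6%. Both lists held 53.2% when 50% of the shorter peak had to overlap and 37.4% with summits within 100 bp. The coding exon share was 7.56% and 8.40% in the lists of 1 replicate, 2.51% in the stronger 50%, 5.56% at 1000 bp and 5.96% with introns counted first. Besides the choices' own construction, the cause of each change was not tested. Read depth is unknown, so what depth limits could not be set.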
